A study of Homo sapiens with 6 samples.

Results

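The TNF receptor superfamily is represented here by 9 genes, TNFRSF14, TNFRSF4, TNFRSF18, TNFRSF10A, TNFRSF10B, TNFRSF10D, FAS, TNFRSF1A and TNFRSF12A, chosen by symbol from the 67140 genes of the count list. All 9 were matched to a single Ensembl identifier. The RNA-Seq libraries come from U2OS, an osteosarcoma cell line of human origin, labelled with the genotype WT in every group. Control cells received no treatment, and the other groups received adriamycin at 1.5 μg/ml or etoposide at 100 μM for 4 h. Both drugs are topoisomerase II poisons. The study asked how a poison that condenses chromatin, adriamycin, differs from one that does not. Each of the 3 groups has 2 libraries from the same cell line, and the study's legends call the libraries of a condition technical replicates. A supplementary legend on chromatin contacts (Hi-C) uses that term for cells cultured and sequenced independently. Whether this holds for the RNA-Seq libraries was not stated, so a p-value measures only the spread between these libraries.

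TNF superfamily receptors are membrane proteins that bind trimeric ligands. Receptors with an intracellular death domain, among them FAS, TNFRSF1A, TNFRSF10A and TNFRSF10B, can recruit adaptors such as FADD and TRADD and activate caspase-8, whereas receptors without one, such as TNFRSF14, TNFRSF4, TNFRSF18 and TNFRSF12A, bind TRAF proteins and signal to NF-kappaB. FAS and TNFRSF10B are long known as p53 target genes that respond to DNA damage.

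The etoposide libraries list all 67140 genes, with 21450766 and 14244235 counts. The control and adriamycin libraries were analysed over the first 220 to 292 genes of the list. The 220 genes common to all 6 libraries lie between bases 12010 and 4594016 of chromosome 1 (GRCh38) and sum to 59357 to 92794 counts per library, at most 0.433% of an etoposide library. TNFRSF14, TNFRSF4 and TNFRSF18 are in that stretch and can be compared between the treatments. The other 6 members were counted in the etoposide libraries and were not analysed here in control or adriamycin-treated cells, so no change is given for them.

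The labels call the tissue bone and the cell type epithelial. In the etoposide libraries 6 of 7 mesenchymal and osteoblast markers had at least 10 counts in both libraries, led by COL1A1, SPARC and VIM, with summed levels of 2900 and 2975 TPM (counts scaled for transcript length and library depth). RUNX2 had 101 and 69 counts (mean 2.03 TPM), and COL1A2 had 5 and 2. Of the epithelial markers, 6 of 7 were detected with summed levels of 753 and 699.8 TPM, almost all from the keratins KRT8 and KRT18. EPCAM had 293 and 169 counts (mean 18.2 TPM). The epithelial cadherin CDH1 had 30 and 20 counts, and KRT19 had 1 and 0. Markers of both kinds were therefore present, and 1 marker of each kind was under 10 counts.

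TNFRSF14 (ENSG00000157873, chromosome 1, 2555639 to 2565382, plus strand), also known as HVEM, is the receptor for LIGHT and a partner of the inhibitory receptor BTLA. It was the member with a called change, and the sequence before its start is shown for that reason. The TNFRSF18 sequence is shown beside it because it is the other member that was counted under all treatments and has a promoter entry in RefSeq (GRCh38.p14). Capitals in TNFRSF14 mark matches to the NF-kappaB consensus, and capitals in TNFRSF18 mark GGGCGG, the core of a GC box, on either strand.
TNFRSF14, chr1:2556262-2556370, plus strand: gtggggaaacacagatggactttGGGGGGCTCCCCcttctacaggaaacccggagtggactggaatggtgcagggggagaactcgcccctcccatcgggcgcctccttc
TNFRSF18, chr1:1206593-1206842, minus strand: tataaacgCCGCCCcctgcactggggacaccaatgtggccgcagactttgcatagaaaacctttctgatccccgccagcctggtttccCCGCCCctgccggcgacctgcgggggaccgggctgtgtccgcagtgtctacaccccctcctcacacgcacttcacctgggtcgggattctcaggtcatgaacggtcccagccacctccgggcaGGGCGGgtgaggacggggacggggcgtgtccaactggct

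The TNFRSF14 sequence ends at the base before the RefSeq start, and 141 further bases upstream were left out because exons of other transcripts cover them. Its capitals are 3 overlapping matches in 1 run, which start 84 to 86 bases before the start. NF-kappaB matches occurred in 11.3% of the 35093 promoter windows of 300 bases (250 before and 50 after the start). The TNFRSF18 sequence holds 3 GGGCGG matches, a motif found in 44.9% of all windows, and 1 TATAAA at its distant end, a motif found in 11.5%. Neither window had a match to TGANTCA, the AP-1 motif, found in 7.71% of windows, or to the p53 half-site, found in 6.64%. FAS has 3 promoter windows, 1 of which held 1 p53 half-site and 1 NF-kappaB match. Another held 1 TGANTCA, and all 3 held GGGCGG. The TNFRSF1A window held none of the motifs searched. The windows of TNFRSF25 and TNFRSF9, family genes compared below, held 1 and 2 NF-kappaB matches, so the motif was not particular to TNFRSF14. These matches describe letters on both strands and say nothing of binding.

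TNFRSF14 was low in control and adriamycin-treated cells and several times higher in etoposide-treated cells. Its counts were 10 and 8 in control libraries, 10 and 9 in adriamycin libraries, and 68 and 33 in etoposide libraries. Scaled to the shared genes by TMM, these became normalized counts of 8.10 and 9.18 without drug, 10.8 and 12.6 with adriamycin, and 46.0 and 34.7 with etoposide. Both etoposide libraries were thus above all 4 others, while the control and adriamycin values lay close together, in normalized counts without overlap and in raw counts with overlap. The group means were 8.64 ± 0.76 (SD, n = 2) for control, 11.7 ± 1.24 for adriamycin and 40.4 ± 7.995 for etoposide.

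**Figure D1:**
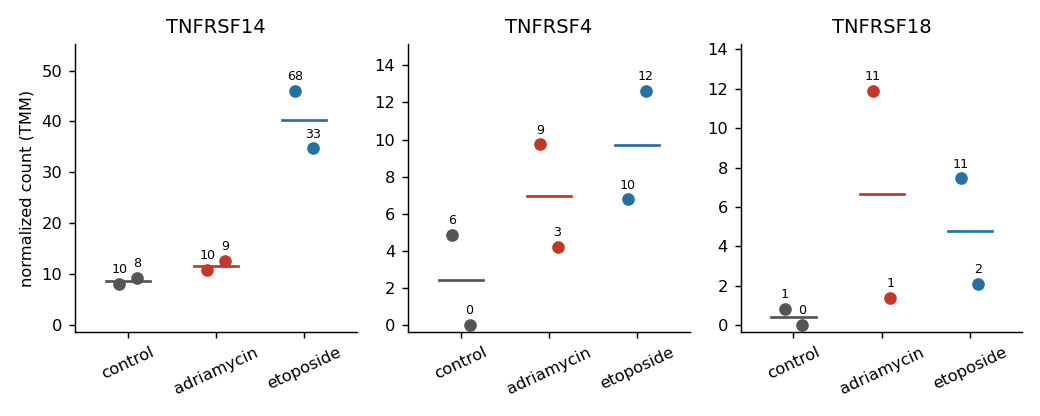
Normalized counts (TMM, vertical axis) of TNFRSF14, TNFRSF4 and TNFRSF18 in the 2 libraries of each group, with a line at the group mean and the raw count above each point. The etoposide points of TNFRSF14 (68 and 33 counts) stand above the other 4, whereas no library of TNFRSF4 or TNFRSF18 exceeded 12 counts.

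Etoposide against control asks how etoposide-treated cells differ from untreated cells, for which no vehicle or time is named. TNFRSF14 was 4.73-fold higher, or 2.24 on the log2 scale (standard error 0.48, 95% confidence interval 1.31 to 3.18). edgeR's quasi-likelihood test gave an adjusted p of 4.88e-05 (Benjamini-Hochberg over 94 genes). To be called, a gene had to change by over 1 in log2 and have an adjusted p below 0.01, and TNFRSF14 met both conditions. Of the 94 genes tested 5 were called (5.32%), 2 higher (2.13%) and 3 lower (3.19%), or 3 higher and 2 lower with upper-quartile scaling or with library size alone. TNFRSF14 had the highest of the 94 log2 changes and ranked at position 13 by p. It passed the filter on low counts through its etoposide libraries. With only control and adriamycin libraries fitted, 88 genes were tested and TNFRSF14 was not among them. The rank and the call therefore concern a gene kept in the fit by the group where it is high. Groups that do not overlap were common, with 34% of the tested genes higher in both etoposide libraries than in both control libraries.

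The call rested on all libraries of the comparison. Without etoposide replicate 1 the log2 change was 1.995 (edgeR adjusted p = 0.0521), and without etoposide replicate 2 it was 2.39 (adjusted p = 0.0104). Leaving out control replicate 1 or 2 gave 2.14 and 2.30 (edgeR adjusted p = 0.0151 and 0.0124). In each of these 4 fits TNFRSF14 kept its direction and was no longer called. The lone library left in a group was taken to vary like the others, and why the call was lost was not tested.

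Adriamycin against control cells asks the same of adriamycin. The log2 change of TNFRSF14 was 0.43 with a standard error of 0.63 (95% confidence interval -0.80 to 1.67), and edgeR gave an adjusted p of 0.595. It was not called, and the interval extends past the threshold of 1, so that a rise or a small fall cannot be told apart at 8 to 10 counts per library. In this comparison 8 of 94 genes were called (8.51%), 1 higher (1.06%) and 7 lower (7.45%), and 33% were higher in both adriamycin libraries than in both control libraries, as TNFRSF14 was. The split was 4 higher and 6 lower with upper-quartile scaling, 2 and 6 with DESeq2's size factors, and 0 and 10 with library size alone.

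Adriamycin against etoposide compares both drugs directly. TNFRSF14 was lower in adriamycin-treated cells by 3.51-fold, a log2 change of -1.81 with a standard error of 0.48 (95% confidence interval -2.75 to -0.88, edgeR adjusted p = 0.000600). It was 1 of 12 genes called (12.8%), of which 10 were lower (10.6%) and 2 higher (2.13%) with adriamycin, and 40.4% of the tested genes were lower in both adriamycin libraries than in both etoposide libraries. With library size alone 21 genes were lower and 1 was higher. DESeq2's Wald test gave -1.73 with an adjusted p of 0.0127, which misses the threshold. The call was also lost without adriamycin replicate 1 (-1.65, edgeR adjusted p = 0.0241), etoposide replicate 1 (-1.55, adjusted p = 0.0482) or etoposide replicate 2 (-1.94, adjusted p = 0.0121). Here too TNFRSF14 passed the filter on low counts through its etoposide libraries. The call therefore concerns a gene kept in the fit by the group where it is high. The comparisons share libraries and are not independent of each other.

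**Figure D2:**
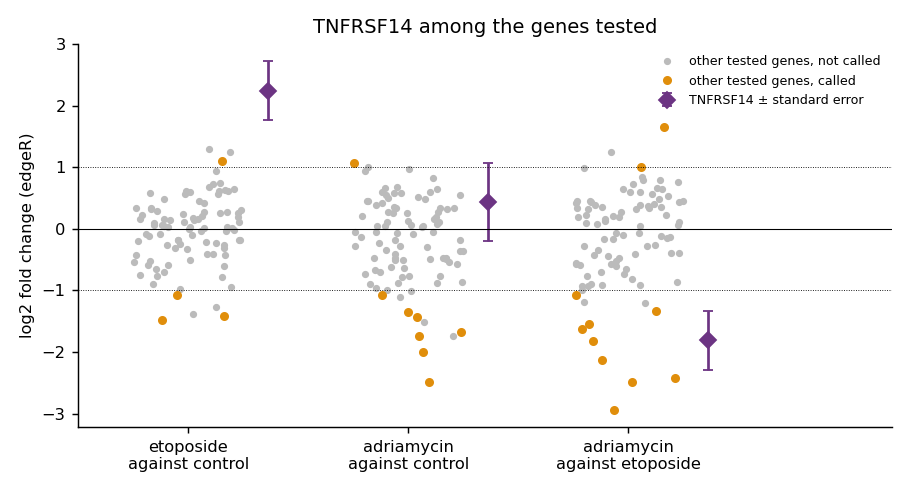
Log2 fold changes (vertical axis) of the 94 genes tested in each comparison, with called genes in orange and TNFRSF14 as a diamond ± its standard error. TNFRSF14 lies at 2.24 against control with etoposide, at 0.43 with adriamycin, and at -1.81 between the drugs, where other genes fell further.

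**Figure D3:**
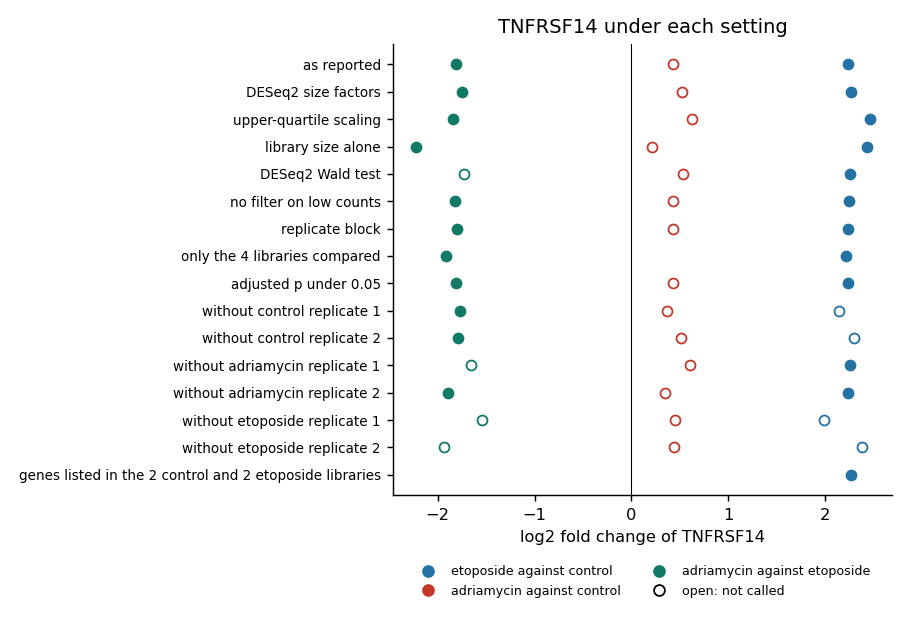
Log2 fold change of TNFRSF14 (horizontal axis) under each processing setting and with each library left out, for the 3 comparisons, with open symbols where the gene was not called. The etoposide value stays between 1.995 and 2.46, and its symbols are open where a control or an etoposide library is left out, whereas between the drugs they are open for DESeq2's Wald test and without adriamycin replicate 1 or either etoposide library.

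TNFRSF14 shares 826 exon bases (13.3% of its exon bases) with the antisense gene TNFRSF14-AS1 on the opposite strand, and whether counting used strand was not stated. Reads of both genes can therefore not be told apart over that stretch. TNFRSF14-AS1 itself had 1 and 1 counts in control, 0 and 0 in adriamycin and 3 and 0 in etoposide libraries, and a library with 0 counts may hide up to 3. Its part in the TNFRSF14 result was not tested. In bulk RNA, fewer cells that express a gene and less RNA per cell cannot be told apart.

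No tested neighbour of TNFRSF14 was called. Within 50 kb, the genes that passed the filter on low counts were PRXL2B, 21109 bases away, and PANK4, a pantothenate kinase family gene, 29042 bases away. PRXL2B had 759 and 549 counts in control, 352 and 216 in adriamycin and 653 and 470 in etoposide libraries. Its log2 change was -0.41 with etoposide (edgeR adjusted p = 0.00169) and -0.86 with adriamycin (adjusted p = 4.65e-10), under the threshold of 1 in both. PANK4 had counts of 372 and 245, then 219 and 108, then 483 and 310, with log2 changes of 0.16 (edgeR adjusted p = 0.363) with etoposide and -0.57 (adjusted p = 0.000859) with adriamycin. After normalization both genes lay lower in both adriamycin libraries than in both control libraries. That pattern was not particular to these neighbours, and other tested genes such as SAMD11, CPTP and SKI showed it too. Its share among all tested genes was not counted here, and 33% showed the opposite one, higher in both adriamycin libraries.

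Across the 6 libraries the tested gene most like TNFRSF14 was MIB2, an E3 ubiquitin ligase of the Notch pathway. Pearson's r of the log2 CPM (counts scaled to library size) was 0.911 over 6 libraries that share their groups and scaling, the highest among 93 other genes. MIB2 had 316 and 185 counts in control, 318 and 249 in adriamycin and 781 and 458 in etoposide libraries, so that it too was highest with etoposide. TMEM52 (r = 0.819) and ENSG00000268575 (r = 0.815) followed. These values describe 6 points in 3 groups and carry no test.

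TNFRSF4 (ENSG00000186827, chromosome 1, 1211326 to 1214153, minus strand) is OX40, a co-stimulatory receptor of activated T cells. It had 6 and 0 counts in control libraries, 9 and 3 in adriamycin libraries and 10 and 12 in etoposide libraries. Both etoposide values were above both control values after normalization, as in 34% of the 94 genes tested. The adriamycin values overlapped with both groups. The gene failed edgeR's filter on low counts and was not tested in the fit of the 94 genes.

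The summed TNFRSF4 counts, 6 in control and 22 in etoposide libraries, correspond to a ratio of 3.18 after scaling, with a 95% counting interval of 1.25 to 9.59. The ratio of adriamycin to control was 2.57 (0.892 to 8.34), and that of adriamycin to etoposide was 0.807 (0.364 to 1.70). These intervals, like all intervals on counts given here, cover counting error only and leave out the spread between libraries. Without the filter edgeR tested 174 genes, and the log2 changes of TNFRSF4 were 1.73 with etoposide (adjusted p = 0.218), 1.33 with adriamycin (adjusted p = 0.442) and -0.40 between the drugs (adjusted p = 0.759). It was not called in any of them. TNFRSF4 passed the filter when 1 control library was left out, and the values then differed widely. Without control replicate 1, which leaves a control of 0 counts and so a fold that is no bound, they were 6.20 with etoposide and 5.89 with adriamycin (edgeR adjusted p = 0.115 and 0.118), and without control replicate 2 they were 0.90 and 0.56 (adjusted p = 0.552 and 0.770).

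TNFRSF18 (ENSG00000186891, chromosome 1, 1203508 to 1206592, minus strand) is GITR, a receptor abundant on regulatory T cells that lies 4734 bases from TNFRSF4 on the same strand. It had 1 and 0 counts in control libraries, 11 and 1 in adriamycin libraries and 11 and 2 in etoposide libraries. Replicate 1 was far above replicate 2 in both treated groups, and in each treated group the lower library was close to the control. TNFRSF18 also failed the filter.

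For TNFRSF18 the ratio of summed counts was 11.3 for etoposide to control (95% counting interval 1.69 to 479), resting on 1 control count. The corresponding ratio for adriamycin was 15.4 (2.28 to 659), and between the drugs it was 1.37 (0.570 to 3.25). In the fit without the filter the log2 changes were 3.16 with etoposide (edgeR adjusted p = 0.145) and 3.59 with adriamycin (adjusted p = 0.0579), with standard errors of 1.47 and 1.46. Between the drugs the value was 0.44 (adjusted p = 0.781). TNFRSF18 passed the filter in some fits with 1 library left out. The fits given here all kept replicate 1 of both treated groups, its highest libraries at 11 counts each. The values therefore concern a gene kept in the fit by the libraries where it is high. Without adriamycin replicate 2 the values against control were 3.19 with etoposide and 4.37 with adriamycin. They were 2.51 and 2.97 without control replicate 2, and 3.65 and 3.64 without etoposide replicate 2. TNFRSF18 was not called in any of these fits, which does not show that the groups were alike.

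The tested neighbours of TNFRSF4 and TNFRSF18 within 50 kb were SDF4, B3GALT6, C1QTNF12 and UBE2J2, and none was called against control. With etoposide their log2 changes were 0.044, 0.34, -0.18 and -0.09 in that order (edgeR adjusted p = 0.769, 0.0584, 0.664 and 0.503). With adriamycin SDF4, a Golgi calcium-binding protein, was at 0.52 (edgeR adjusted p = 2.21e-07) and C1QTNF12 at 0.83 (adjusted p = 0.00415). B3GALT6, a galactosyltransferase, was at -0.47 (edgeR adjusted p = 0.00927) and UBE2J2, a ubiquitin-conjugating enzyme, at -0.51 (adjusted p = 7.81e-06), so that all 4 were under 1 in size. C1QTNF12 was called higher with adriamycin than with etoposide, with a log2 change of 1.01 (edgeR adjusted p = 0.000333).

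A pair of further family members was listed in both control and both etoposide libraries, which share 280 genes up to base 7943165 of chromosome 1. In a fit of these 4 libraries 118 genes were tested and 5 were called (4.24%), 2 higher (1.69%) and 3 lower (2.54%), and TNFRSF14 had a log2 change of 2.28 with a standard error of 0.38 (edgeR adjusted p = 0.00119). TNFRSF25, a death-domain receptor of lymphocytes, had 201 and 167 counts in control and 210 and 136 in etoposide libraries. TNFRSF9, the co-stimulatory receptor 4-1BB, had 1180 and 715 in control and 1363 and 899 in etoposide libraries.

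Neither TNFRSF25 nor TNFRSF9 was called. The log2 change of TNFRSF25 was -0.27 (95% confidence interval -0.59 to 0.048, edgeR adjusted p = 0.197), and its sign turned with upper-quartile scaling (0.064). It shares 383 exon bases with ESPN on the opposite strand. That of TNFRSF9 was 0.10 (95% confidence interval -0.091 to 0.29, edgeR adjusted p = 0.436). With upper-quartile scaling it was 0.44 (adjusted p = 0.00272) and with library size alone 0.28 (adjusted p = 0.0363), both under the threshold of 1. Both of these intervals, under TMM and a normal approximation, stay within a change of 1 on the log2 scale in either direction. Both genes were counted more deeply than TNFRSF14.

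The remaining results describe levels in etoposide-treated cells, in TPM, which divides each count by the bases of all annotated exons of the gene and scales every library to the same total. A gene with at least 10 counts in both libraries is called detected here. Of the 67140 genes 17207 (25.6%) were detected, with a median of 12.3 TPM, and 6 of the 9 members were among them. The members ranged from 543 TPM to 0 counts, and the 4 highest were those for receptors of TWEAK, TNF, TRAIL and FAS ligand.

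TNFRSF12A (ENSG00000006327, chromosome 16, 3018445 to 3022383, plus strand), known as Fn14, is the receptor of TWEAK. It had 6153 and 3928 counts, or 548 and 538 TPM (mean 543 ± 7.26, SD, n = 2), above 98.6% of detected genes. TNFRSF1A (ENSG00000067182, chromosome 12, 6328757 to 6342114, minus strand) is the main receptor of TNF and carries a death domain. It had 2157 and 1397 counts, or 82.3 and 81.9 TPM (mean 82.1 ± 0.26). The level of TNFRSF12A was 6.61 times that of TNFRSF1A, far beyond the spread between libraries.

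The TRAIL receptors lie together on chromosome 8 and differed widely. TNFRSF10B (ENSG00000120889, 23020133 to 23069031, minus strand), which transmits the death signal of TRAIL and is called DR5, had 1887 and 1385 counts, or 60.4 and 68.2 TPM (mean 64.3 ± 5.48). TNFRSF10A (ENSG00000104689, 23190452 to 23225102, minus strand), the other death-signalling TRAIL receptor, called DR4, had 0 counts in both libraries, which allows up to 0.140 and 0.211 CPM (3 counts). TNFRSF10D (ENSG00000173530, 23135588 to 23164027, minus strand), a decoy receptor whose death domain is incomplete, had 7 and 2 counts, or 0.318 and 0.140 TPM. In these cells TNFRSF10B was therefore the TRAIL receptor of high level among the 3 members, and TNFRSF10C, the decoy without an intracellular part, had 43 and 65 counts.

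The TRAIL receptors share stretches of sequence, so the counts of close copies could be split or left out by the counting, whose treatment of multiply mapped reads was not stated. No exact stretch of 50 bases was shared between the main transcripts of a member and any other receptor of the family, and 7 pairs shared one of 30 bases. The highest share was 0.913% of such stretches, between TNFRSF10D and TNFRSF10C. TNFRSF10B also shares 377 exon bases with RHOBTB2 on the opposite strand.

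FAS (ENSG00000026103, chromosome 10, 88953813 to 89029605, plus strand), the receptor of FAS ligand, had 766 and 471 counts, or 4.19 and 3.96 TPM (mean 4.08 ± 0.163). Its annotated exons add up to 29313 bases, most of them outside the main (MANE Select) transcript of 3696 bases. With the main transcript's length, an alternative chosen after seeing the data, FAS was at 19.7 ± 0.569 TPM. The same change of length moved TNFRSF14 from 1.53 ± 0.315 to 3.41 ± 0.664 TPM and no other detected member by over 1.5 times. FAS stayed below TNFRSF10B and above TNFRSF14 with both lengths. It shares exon bases with ACTA2 (387), STAMBPL1 (166) and ENSG00000286116 (1899).

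TNFRSF14, TNFRSF4 and TNFRSF18 were at the low end in etoposide-treated cells. Their means were 1.53 ± 0.315, 1.16 ± 0.485 and 0.888 ± 0.707 TPM. By all exon bases, neither TNFRSF14 and TNFRSF4 nor TNFRSF4 and TNFRSF18 were apart beyond their 2 libraries. The other neighbours in the order of the 9 members were apart, although TNFRSF18, TNFRSF10D and TNFRSF10A are separated by few counts (11 and 2, 7 and 2, 0 and 0). With the main transcript's length TNFRSF14 stood apart from TNFRSF4. After its rise TNFRSF14 was still above only 11.7% of detected genes, or 26.7% with the main transcript's length.

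**Figure D4:**
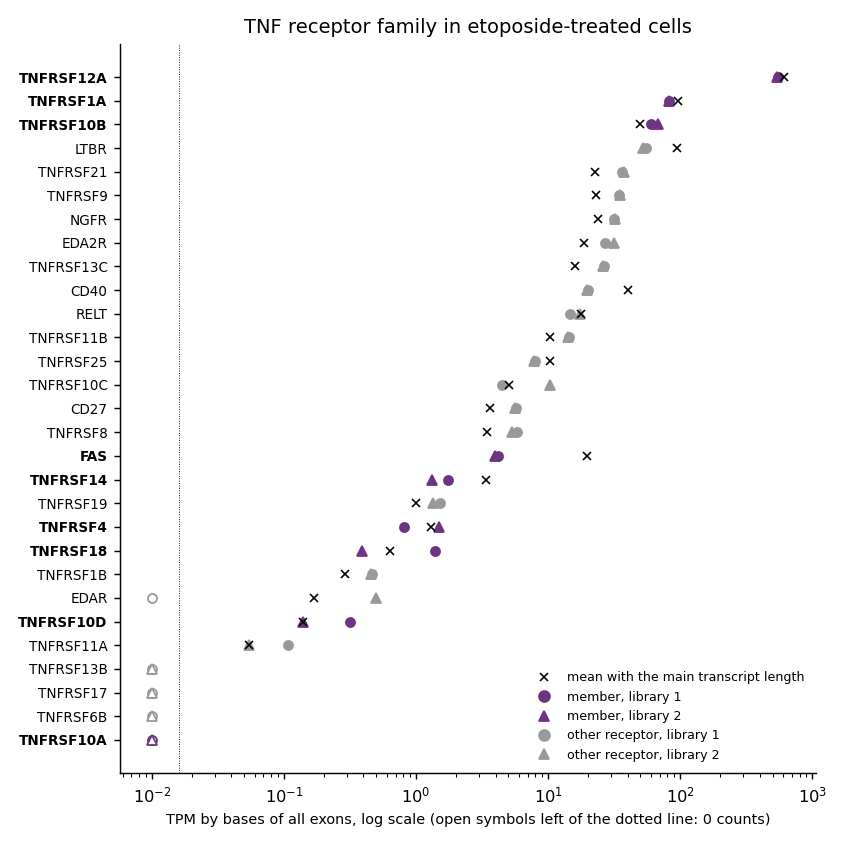
TPM (horizontal axis, log scale) of the 9 members and of 20 other TNF receptor family genes in the 2 etoposide libraries, with crosses at the mean by the main transcript's length and open symbols at 0 counts. By all exon bases TNFRSF12A leads at 543 TPM, TNFRSF1A and TNFRSF10B follow, FAS moves most with the length, and TNFRSF10A is at 0 counts.

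Of the 20 other receptors of the family 14 were detected, and TNFRSF6B, TNFRSF13B and TNFRSF17 had 0 counts in both libraries. By all exon bases the highest were LTBR, the lymphotoxin beta receptor, at 53.3 ± 2.02 TPM, TNFRSF21, a death-domain receptor, at 37.0 ± 0.894, TNFRSF9 at 34.7 ± 0.337 and NGFR, the low-affinity neurotrophin receptor, at 31.9 ± 0.302. With the main transcript's length LTBR was at 93.7 TPM and CD40 came next at 40.3, ahead of NGFR (23.7), TNFRSF9 (22.9) and TNFRSF21 (22.5). By all exon bases the median of the 20 was 7.65 TPM and that of the 9 members 1.53, with undetected genes included. The median of 12.3 TPM for all detected genes leaves such genes out, so it is not a like measure. TNFRSF10C was the 1 detected receptor whose libraries lay over 2-fold apart, at 4.47 and 10.4 TPM.

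The ligands of the members were scarce in these cells. Of 10 genes for their ligands and partners 5 were detected, with a median of 0.599 TPM over the 10. By all exon bases the highest was TNF, the ligand of TNFRSF1A, with 19 and 16 counts (2.08 ± 0.378 TPM), followed by LTA with 22 and 12, CD160 with 36 and 15, and TNFSF12 (TWEAK), the ligand of TNFRSF12A, with 23 and 16. The order of these 4 depends on the length used, and with the main transcript's length CD160 (1.82 TPM) and TNFSF12 (1.69) were above LTA (1.40) and TNF (1.27). TNFSF14, the ligand of TNFRSF14 known as LIGHT, had 1 and 5 counts, and TNFSF10 (TRAIL) had 4 and 3. FASLG and TNFSF18, the ligands of FAS and TNFRSF18, had 0 counts in both libraries.

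Of 10 other ligands of the family 6 were detected and CD40LG had 0 counts. TNFSF9, the ligand of TNFRSF9, had 807 and 544 counts (80.7 ± 2.03 TPM), and CD70, the ligand of CD27, had 561 and 317 counts (55.0 ± 5.47 TPM). LTB was at 5.91 ± 1.09 TPM and TNFSF13 at 1.70 ± 0.206 TPM. TNFSF9 and its receptor TNFRSF9 were thus both above the median of detected genes, unlike the ligands of the 9 members.

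The intracellular partners were present throughout. All 12 adaptors and caspases were detected, with a median of 25.9 TPM, among them DAXX (108 ± 1.70), BID, the BCL2 family protein cut by caspase-8, (51.9 ± 0.781) and FADD (32.0 ± 2.103). CASP8, the initiator caspase of death receptors, was at 12.3 ± 0.523 TPM, while CASP10, its close relative, had 45 and 25 counts (0.750 ± 0.0836 TPM). All 6 TRAF genes were detected, led by all exon bases by TRAF4 (104 ± 1.21), TRAF1 (43.5 ± 3.57), TRAF2 (24.3 ± 1.43) and TRAF6 (13.2 ± 1.61). With the main transcript's length TRAF6 was at 8.33 TPM, below TRAF5 (10.8) and TRAF3 (10.5).

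Of 9 genes that restrain the pathway 8 were detected, and the decoy receptor TNFRSF6B had 0 counts. The highest were BIRC2 (83.9 ± 1.02 TPM) and BIRC3 (68.2 ± 8.34), ubiquitin ligases of the TNF receptor complex, then TNFAIP3 (44.2 ± 4.63) and CYLD (14.4 ± 0.416), which remove ubiquitin chains. CFLAR, which encodes the caspase-8 inhibitor FLIP, was at 7.92 ± 1.18 TPM. These lists were analysed here in etoposide-treated cells only, and no change with treatment is given for them.

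Markers of immune cells, which carry TNFRSF4, TNFRSF18 and TNFRSF14 in tissue, summed to 14.7 and 14.8 TPM over 12 genes in the etoposide libraries. Of the 12 genes 5 were detected, and NCAM1 (461 and 332 counts) and FOXP3 (52 and 39 counts) were highest. The pan-leukocyte gene PTPRC had 6 and 6 counts, and the T cell gene CD3E had 0 and 2. The same markers were not analysed here in control and adriamycin-treated cells.

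**Figure D5:**
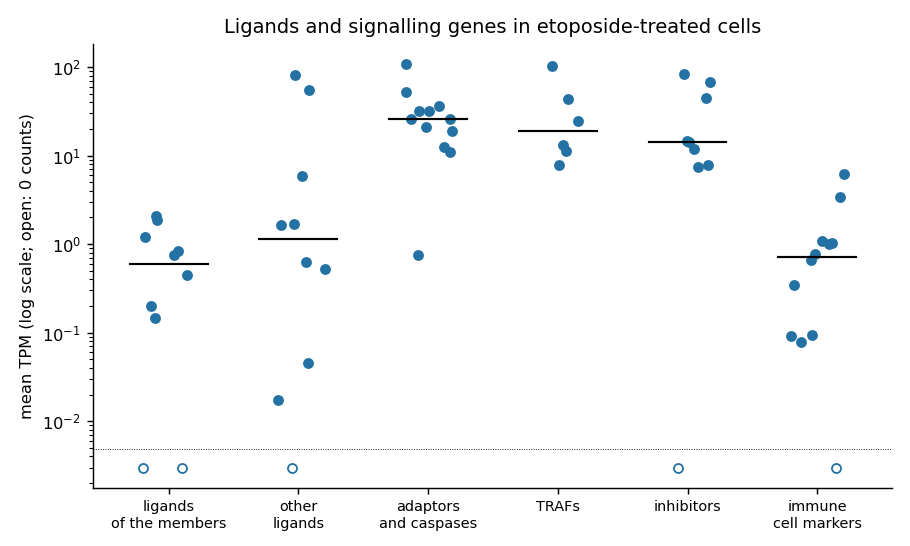
Mean TPM in the 2 etoposide libraries (vertical axis, log scale) of each gene in 5 lists of ligands and signalling genes and 1 list of immune cell markers, with a line at each list's median and open symbols at 0 counts. The line for the members' ligands lies at 0.599 TPM and that for adaptors and caspases at 25.9 TPM.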

How the data were processed

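Poly-A RNA of U2OS cells was sequenced as paired ends of 150 bases. Per the labels the authors aligned reads to GRCh38 with HISAT2 2.1.0 and counted them per Ensembl gene with featureCounts (Subread 2.0.0). The deposited values are raw counts, whole numbers without normalization. Groups and replicate numbers were taken from the sample labels. The incomplete last line of 4 libraries was left out. Symbols came from GENCODE 44 (60357 of 67140 identifiers). Promoter sequences came from RefSeq (GRCh38.p14) and matched 4 of 9 members (TNFRSF14, TNFRSF18, FAS and TNFRSF1A).

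The quasi-likelihood test of edgeR 4.0.16 in R 4.3.3 was run with TMM scaling and edgeR's filter on low counts, and p-values were adjusted by Benjamini-Hochberg over 94 genes, in 1 fit of the 6 libraries without a replicate block. Thresholds followed the study's methods. The alternatives were DESeq2 1.42.0, other scalings and filters, a replicate block and leaving out each library. Ratios of summed counts have exact binomial intervals and single counts exact Poisson limits. Confidence intervals of log2 changes use a normal approximation, so they can be narrower than the quasi-likelihood test implies. The procedure was tested on simulated data. Tables were made with Python 3.11.15.

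Libraries of a group differed beyond counting error in 21.3% to 34.7% of 75 genes (binomial test at 0.05), and none was counted as a duplicate. Same-numbered libraries did not deviate together (correlations of -0.070, 0.036 and -0.010 over 75 genes), so the numbers were not taken as pairs. The genes named in the text are the members, other family genes listed in control and etoposide libraries, tested genes within 50 kb, the 3 genes most like TNFRSF14, and from each list the 4 highest genes and those at 0, of which some are not reported here. CASP8, CASP10, CFLAR, TNFSF14, TNFSF10, TNFRSF10C, CD40, CDH1, RUNX2, TRAF3, TRAF5, SAMD11, CPTP, SKI and markers under 10 counts were named after their values were seen. The members and lists were chosen with earlier results of these data known.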

Additional observations from a re-analysis of the deposited data

How the results depend on the processing

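TNFRSF14 kept its direction under all 15 alternatives tried for etoposide against control, with log2 changes of 1.995 to 2.39 when 1 library was left out and of 2.21 to 2.46 otherwise. Between the drugs it lay at -1.94 to -1.55 when 1 library was left out, and DESeq2's Wald test gave -1.73 (adjusted p = 0.0127), which ended the call. The cause was not tested. TNFRSF14 was not tested with a filter of at least 10 counts in every library. Nor was it tested for adriamycin against control when only the 4 libraries compared were fitted. TNFRSF4 and TNFRSF18 gave values only without the filter or when a library was left out. Upper-quartile scaling turned TNFRSF25 from -0.27 to 0.064. It moved the median of all genes by 0.22 (etoposide) and 0.19 (adriamycin against control), and library size alone by 0.19, -0.22 and -0.41 in the 3 comparisons. TNFRSF14 lay 2.22, 0.50 and -1.74 from the median under TMM.

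The number of genes called between the drugs was 12, and it was 22 with library size alone and 6 when each library had to hold at least 10 counts. For adriamycin against control 8 became 5 when only the 4 libraries compared were fitted, and in the 118 genes of control and etoposide libraries 5 became 8 at an adjusted p under 0.05. Leaving out 1 library gave 0 to 5 calls for etoposide against control, 5 to 8 for adriamycin against control, 3 to 13 between the drugs and 0 to 7 among the 118 genes. Without etoposide replicate 1 edgeR made 0, 5 and 3 calls in the 3 comparisons, where 26 of 100 genes had an unadjusted p under 0.05 for etoposide against control, and without etoposide replicate 2 it made 2, 5 and 7. Without control replicate 2 it made 2 for etoposide against control. The 118 genes gave 0 calls without etoposide replicate 1 or without replicate 2, with 40 of 124 and 43 of 128 genes tested at an unadjusted p under 0.05. With the replicate number as a block TNFRSF14 had log2 changes of 2.24, 0.44 and -1.80, and the block gave 5, 8 and 12 calls and changed no call of TNFRSF14. In etoposide-treated cells 55 of 73 family and pathway genes were detected, or 63 at 1 count in both libraries, and the order of all 36 pairs of members held with every length. At no more than 12 counts per library, depth limits what can be said of TNFRSF4 and TNFRSF18.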
